A study of Mus musculus with 6 samples.

Results

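The genes described here encode 10 receptors that attach cells to their surroundings: the integrin alpha chains Itga2b, Itga4, Itga5, Itga6 and Itgav, the integrin beta chains Itgb1, Itgb2 and Itgb3, the hyaluronan receptor Cd44 and the heparan sulfate proteoglycan Sdc4. They are 10 of the 23284 genes counted in each of 6 libraries of erythroblasts, red cell precursors that still have a nucleus, sorted from C57BL/6 mouse embryos at day E10.5. All 3 Setd8 null libraries had the genotype SETD8fl/fl EpoR Cre, in which Cre recombinase is placed at the locus of the erythropoietin receptor and acts in the erythroid lineage. Among the 3 control libraries, control replicates 1 and 3 were Setd8 +/+ EpoRCre and control replicate 2 was Setd8 fl/fl EpoR WT, without Cre. Cells of both groups had been stained and sorted as live and positive for Ter119 and CD71. The series' design text names fetal blood as their source and the sample labels fetal liver, and no source used here says whether embryos were pooled. The genes were chosen by name with their null to control ratios known, so that every null against control value of these 10 genes is a description, and no p-value is given for it.

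Integrins are pairs of an alpha and a beta chain that bind extracellular matrix or receptors on other cells and link them to the actin cytoskeleton. In the red cell lineage alpha4 beta1 and alpha5 beta1 hold immature erythroblasts to fibronectin and to the macrophages of erythroblastic islands, and these receptors and Cd44 decline as the cells mature and leave the islands. The alphaIIb beta3 pair is the fibrinogen receptor of platelets and megakaryocytes and its alpha chain also marks early blood progenitors, while beta2 integrins are receptors of white blood cells.

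Gene counts summed to 15203019 to 21381086 reads in the null libraries and to 7756940 to 21434719 in the control libraries, and CPM below are counts per 1000000 with TMM scaling. A count of 3 corresponded to 0.154 to 0.175 CPM in the null libraries and to 0.139 to 0.444 CPM in the control libraries. Setd8 itself stood at 48.8, 100.1 and 96.2 CPM in null replicates 1, 2 and 3, against 73.9, 74.7 and 203 CPM in control replicates 1, 2 and 3. The groups overlapped, and counts over the whole gene do not measure the floxed part alone. The titles of null replicate 1 and control replicates 1 and 2 carry no trailing letter (the unlettered set), and those of null replicates 2 and 3 and control replicate 3 carry one (the lettered set). Within each set Setd8 was lower in every null library than in every control. Null was compared with control with group as the only term (group alone) and again with a term for title set (set-adjusted), and a gene is named as called where its adjusted p was under 0.05 by edgeR's quasi-likelihood test. Tfrc, which encodes the CD71 used in the sort, stood at 192 to 273 CPM in null cells and 398 to 443 CPM in controls. Of 10 tested erythroid markers 0 rose and 3 fell set-adjusted, beside 8.65% and 4.16% of all genes. Tfrc was among those that fell (log2 ratio -0.92, SE 0.16, adjusted p = 0.00363 by the same test). With group alone 0 of the 10 were called by edgeR, beside 1.15% of all genes, and DESeq2 called 1 lower. Y-linked transcripts summed to 164, 136 and 120 CPM in null replicates 1, 2 and 3, against 117, 0.479 and 0 CPM in control replicates 1, 2 and 3. They were thus at or near 0 in 2 controls and in no null library. In bulk RNA, a change in the number of cells of a type and a change in RNA per cell cannot be told apart. The labels do not tie the libraries to separate embryos, and the spread behind each p-value may therefore be partly technical.

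Set against exon length, so that genes can be compared, the 10 receptors fell into an abundant group led by Itgb1 and a scarce group with Itgav, Itga4, Itga5 and Itga6 in null and control cells alike. Itgb1, the beta chain shared by most matrix-binding integrins, was highest at 10.8 ± 5.78 CPM per kb of exon in null cells and 6.08 ± 3.73 in controls (SD, n = 3 each). In null cells the mean levels per kb then ran Itga2b (9.39), Itgb3 (8.16), Itgb2 (6.09), Sdc4 (4.33), Cd44 (0.824), Itgav (0.330), Itga4 (0.280), Itga6 (0.0480) and Itga5 (0.0272). In controls the order after Itgb1 was Itgb3 (2.79), Itga2b (2.26), Itgb2 (0.290), Itgav (0.164), Itga4 (0.0455), Itga5 (0.0293) and Cd44 (0.00719), with Sdc4 and Itga6 at 0 reads. Neighbours in the null order overlapped in their ranges except between Sdc4 and Cd44, between Cd44 and Itgav and between Itga4 and Itga6. In the control order the gaps lay between Itga2b and Itgb2 and between Itgav and Itga4, and from Itga4 on the ranges overlapped or lay at 0, since Cd44 too had no read in control replicate 1. The levels of all 10 genes per kb summed to 37.7, 50.4 and 32.8 in null replicates 1, 2 and 3 and to 8.26, 9.35 and 17.4 in control replicates 1, 2 and 3. Of that sum Itgb1 made up 15.3%, 34.0% and 29.1% in the null libraries and 54.9%, 36.1% and 59.4% in the control libraries. Sdc4 made up 19.4%, 6.92% and 6.73% in null libraries and nothing in controls.

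**Figure D1:**
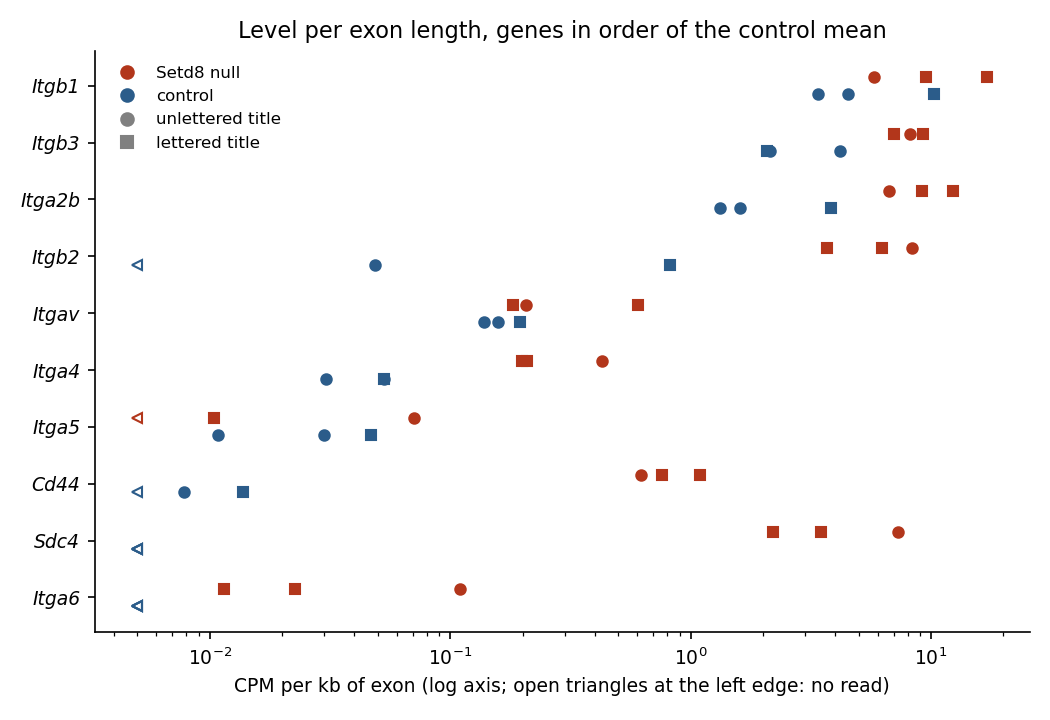
Level of each receptor gene in CPM per kb of exon on a log axis, with Setd8 null libraries in red above control libraries in blue and the marker shape giving the title set. Itgb1, Itgb3 and Itga2b lead in controls, while Sdc4 and Itga6 have no control read and are drawn as open triangles at the left edge.

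Sdc4, syndecan-4, is a transmembrane proteoglycan that carries heparan sulfate and acts with integrins at sites of attachment to fibronectin. It had 319, 173 and 109 reads in null replicates 1, 2 and 3, against 0 reads in each control. As CPM these were 18.6, 8.87 and 5.63 in the null libraries, against limits of 0.444, 0.160 and 0.139 CPM that a count of 0 allows in control replicates 1, 2 and 3. All 3 null libraries held the transcript and no control did, and Sdc4 stood at least 168-fold higher in null cells, taken against 3 counts over the control group. Such limits and the counting intervals below cover counting error only. Cd44 binds hyaluronan, a long sugar polymer of the matrix, and is used to stage erythroblasts because it is lost as they mature. It had 72, 144 and 100 reads in null replicates 1, 2 and 3, against 0, 1 and 2 reads in control replicates 1, 2 and 3. The Cd44 level was 4.20, 7.38 and 5.16 CPM in the null libraries, against 0, 0.0532 and 0.0929 CPM in the controls. The pooled ratio of null to control was 88.6 with an exact 95% counting interval of 30.0 to 432. With a prior count of 2, the within-set log2 ratios of Cd44 were 4.91 in the lettered and 4.94 in the unlettered set. Both depend on that prior count, since no control had more than 2 reads.

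The promoters of these genes are shown because both had reads in every null library and at most 2 in any control. The windows are the 250 bases before the RefSeq start of each gene on build GRCm38.p6, minus strand of chromosome 2, at chr2:164443189-164443438 for Sdc4 and chr2:102901666-102901915 for Cd44. Capitals mark matches to GATAA, the core bound by GATA factors, and to CACCC, the core bound by Kruppel-like factors, on either strand.
Sdc4: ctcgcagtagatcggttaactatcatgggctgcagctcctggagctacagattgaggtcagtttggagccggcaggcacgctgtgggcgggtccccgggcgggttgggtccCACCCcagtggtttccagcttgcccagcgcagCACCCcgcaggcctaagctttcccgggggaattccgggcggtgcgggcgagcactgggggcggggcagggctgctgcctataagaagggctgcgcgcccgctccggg
Cd44: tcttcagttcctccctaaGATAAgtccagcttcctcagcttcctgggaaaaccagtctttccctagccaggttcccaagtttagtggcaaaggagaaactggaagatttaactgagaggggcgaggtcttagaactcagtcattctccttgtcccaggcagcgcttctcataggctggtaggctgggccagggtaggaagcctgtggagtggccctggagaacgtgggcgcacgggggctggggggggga
The Sdc4 window held CACCC starting 139 and 107 bases before the start and no GATAA. The Cd44 window held GATAA starting 232 bases before the start and no CACCC. RefSeq windows were matched for 7 of the 10 genes, all but Itgb3, Itga6 and Itgb2. CACCC was found in 4 of the 7, against 52% of all 32851 windows of this length, and GATAA in 1 of the 7, against 22.6%. The longer CCNCNCCC, which some CACCC matches overlap, was found in 6 of the 7 and in 45.9% of all windows, and CANNTG in 3 of the 7 and in 66.2%. The p53 decamer, by its consensus, was found in 0 of the 7 and in 7.13% of all windows.

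Both chains of the platelet integrin had reads in every control library and were higher in every null library. Itga2b, the alphaIIb chain, stood at 36.5, 67.0 and 50.02 CPM in null replicates 1, 2 and 3, against 7.25, 8.78 and 20.95 CPM in control replicates 1, 2 and 3. Itgb3, the beta3 chain, stood at 48.0, 54.9 and 41.5 CPM in the null libraries, against 12.6, 24.6 and 12.3 CPM in the controls. The null and control ranges did not overlap for either chain. The set-adjusted log2 ratio was 1.82 (SE 0.27) for Itga2b and 1.66 (SE 0.32) for Itgb3. The ratio of the alpha to the beta chain per kb of exon was 0.823, 1.32 and 1.30 in null replicates 1, 2 and 3 and 0.624, 0.386 and 1.84 in control replicates 1, 2 and 3, so that the groups overlapped in the balance of the chains. Of 15 other megakaryocyte and platelet markers, 5 passed the filter on low counts and 0 were called in the group-alone or the set-adjusted comparison by edgeR's quasi-likelihood test (0 and 1 at unadjusted p under 0.05) or by DESeq2. Their summed level was 31.1 to 35.5 CPM in null and 21.4 to 27.2 CPM in control libraries. The highest sum was that of null replicate 1, where Tubb1, a tubulin of platelets, gave 28.4 CPM and Pf4, a platelet factor, 0.175 CPM. In null replicates 2 and 3 Tubb1 gave 9.28 and 9.24 CPM and Pf4 7.95 and 9.40 CPM, and in control replicates 1, 2 and 3 Tubb1 gave 17.6, 10.95 and 5.43 CPM and Pf4 1.18, 0 and 4.18 CPM. Ppbp had no read in any null library. The part of such cells in the levels of Itga2b and Itgb3 was not tested.

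Itgb2, the beta chain of the white blood cell integrins, was at or near 0 in all but 1 control and present in every null library. It had 436, 371 and 218 reads in null replicates 1, 2 and 3, against 1, 0 and 54 reads in control replicates 1, 2 and 3. As CPM these were 25.4, 19.0 and 11.3 in null libraries, against 0.148, 0 and 2.51 in control libraries. The groups did not overlap, and control replicate 3 stood apart from the other controls. The log2 ratio was 2.49 in the lettered set and 7.19 in the unlettered set, where 1 control read makes it depend on the prior count. The set-adjusted log2 ratio was 4.55 (SE 1.16) with all libraries, 2.58 without null replicate 1, 3.66 without control replicate 2 and 9.01 without control replicate 3, when 1 read was left in the controls. Itgb2 was not called set-adjusted when control replicate 1 or any 1 of the null libraries was left out. Its alpha partners Itgal, Itgam, Itgax and Itgad, which pair with beta2 in lymphocytes, granulocytes and macrophages, were low and failed the filter on low counts. They stayed between 0 and 1.29 CPM in null libraries and between 0 and 0.425 CPM in controls. The highest of them in null cells was Itgal, with 50 null and 2 control reads. Itgal stood at 0.117 to 1.29 CPM in null and 0 to 0.148 CPM in control libraries, so that the groups overlapped.

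Macrophage markers were higher in the null libraries as well. Of 18 markers found in the files, 8 passed the filter and 5 rose set-adjusted, beside 8.65% of all genes. Among these were Csf1r, the receptor of macrophage growth factor, and the lysosomal Cd68 and Laptm5. With group alone 2 were called higher by edgeR, beside 1.14% of all genes, and 4 by DESeq2. In this and the next lists, markers with few control reads passed the filter only where null libraries had reads, which favours higher values. The list summed to 64.5, 69.1 and 127 CPM in null replicates 1, 2 and 3, against 2.96, 2.18 and 11.6 CPM in control replicates 1, 2 and 3. Control replicate 3 was the highest control in both, while null replicate 3 had the highest marker sum and the lowest Itgb2 of the null libraries. In null replicate 1, which had the highest Itgb2, Laptm5 stood at 29.6 CPM, Cd68 at 10.2, Csf1r at 9.05 and the complement gene C1qb at 4.96 CPM, while Emr1 had no read. Marco and Vsig4 had no read in any library. The granulocyte and mast cell list summed to 94.1, 73.2 and 118 CPM in null replicates 1, 2 and 3 and to 2.07, 0 and 2.88 CPM in control replicates 1, 2 and 3. Of 2 tested markers 1 was called higher set-adjusted, and with group alone 0 by edgeR and 2 by DESeq2. Ltf, lactoferrin, gave 84.8, 72.1 and 51.7 CPM of the null sums, so that in null replicate 3 the larger part came from other markers. Elane, Ngp, Cpa3, Prss34 and Ms4a2 had no read in any library. Endothelial markers summed to 29.0 to 44.7 CPM in null and 3.83 to 12.7 CPM in control libraries. Of 12 listed markers 5 were tested, and 4 of these were called higher set-adjusted, beside 8.65% of all genes. With group alone 0 were called by edgeR and 4 by DESeq2. The endothelial cadherin Cdh5, not among the 5 tested, stood at 0 to 0.0516 CPM in null libraries and at 0 in controls. Blood progenitor markers summed to 30.5, 74.6 and 77.3 CPM in null replicates 1, 2 and 3 and to 19.7, 24.0 and 68.6 CPM in control replicates 1, 2 and 3, and mesenchymal markers stayed between 0.207 and 3.86 CPM over all libraries. The part of other cells in the levels of Itgb2, Cd44, Sdc4 or any further receptor gene was not tested.

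**Figure D2:**
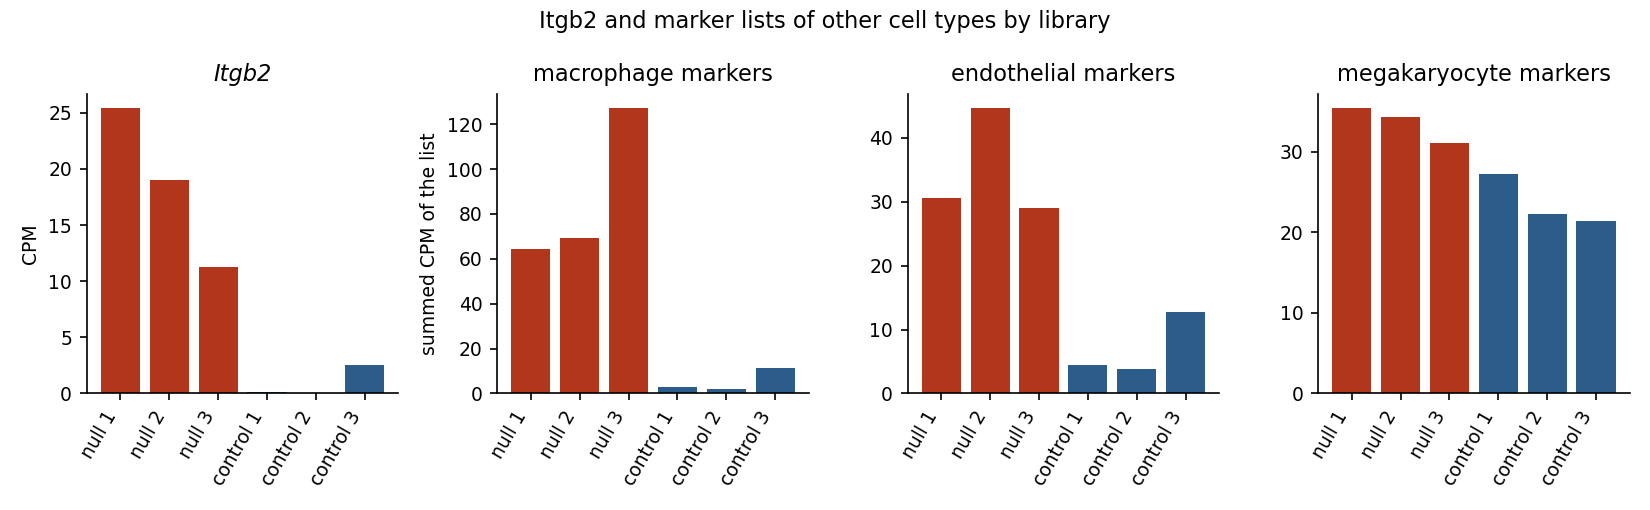
CPM of Itgb2 and summed CPM of the macrophage, endothelial and megakaryocyte marker lists, 1 bar a library, with Setd8 null in red and control in blue. Itgb2 reaches 25.4 CPM in null replicate 1 where the macrophage sum is 64.5 CPM, and megakaryocyte markers reach 35.5 CPM in null and 27.2 CPM in control libraries.

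The beta1 and alphav chains overlapped between the groups. Itgb1 stood at 23.6, 69.9 and 38.9 CPM in null replicates 1, 2 and 3, against 18.5, 13.8 and 42.2 CPM in control replicates 1, 2 and 3. Control replicate 3 lay above null replicates 1 and 3, and the set-adjusted log2 ratio was 0.46 (SE 0.28). Itgav, the alphav chain that pairs with beta1, beta3 and others to bind vitronectin and fibronectin, stood at 2.22, 6.46 and 1.96 CPM in the null libraries, against 1.48, 1.70 and 2.09 CPM in the controls. Its mean in null cells rested on null replicate 2: without that library the set-adjusted log2 ratio was 0.18, against 0.75 (SE 0.87) with it. Itga4, the alpha4 chain, which binds VCAM-1 and fibronectin when paired with beta1, was low but higher in each null library. It stood at 6.01, 2.92 and 2.79 CPM in null replicates 1, 2 and 3, against 0.740, 0.425 and 0.743 CPM in control replicates 1, 2 and 3. The set-adjusted log2 ratio of Itga4 was 2.65 (SE 0.89), and ran from 1.92 without null replicate 1 to 3.38 without control replicate 3. Itga4 was not called there, but it was by DESeq2 and by edgeR where at least 1 CPM in every library of a group was required. Per kb of exon Itga4 came to 0.0744, 0.0122 and 0.0209 of the level of Itgb1 in null replicates 1, 2 and 3 and to 0.0117, 0.00902 and 0.00515 of it in control replicates 1, 2 and 3.

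The remaining alpha chains were at the limit of detection. Itga5, the alpha chain of the fibronectin receptor, had 6, 0 and 1 reads in null replicates 1, 2 and 3, against 1, 1 and 5 reads in control replicates 1, 2 and 3. No direction could be read from 7 reads in each group. Itga6, which pairs with beta1 or beta4 to bind laminin, had 17, 4 and 2 reads in the null libraries, against 0 reads in each control. It stood at least 6.45-fold higher in null cells, taken against 3 counts over the control group, with most of its reads in null replicate 1. Both genes failed the filter on low counts, and where every gene with at least 1 read was tested neither was called.

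**Figure D3:**
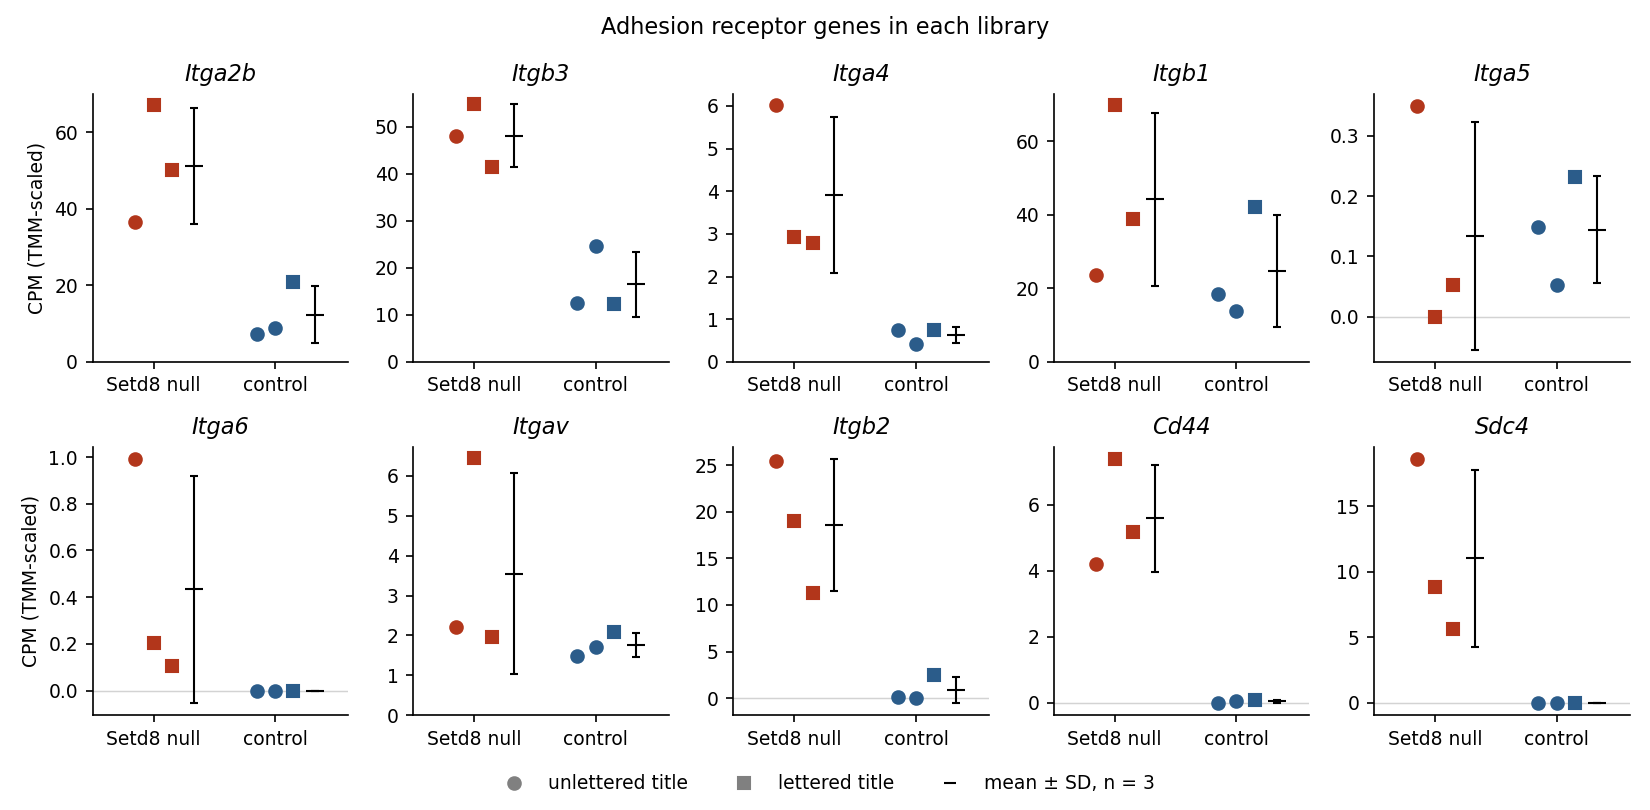
CPM of each of the 10 genes in every library, Setd8 null left of control, with the mean and SD of 3 libraries and the marker shape giving the title set. The null and control points do not overlap for Itga2b, Itgb3, Itga4, Itga6, Itgb2, Cd44 and Sdc4, and they overlap for Itgb1, Itga5 and Itgav.

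Of the 8 genes that passed the filter, 2 were called higher with group as the only term, Sdc4 and Cd44, where 1.14% of all 10512 tested genes were called higher and 1.15% in either direction. Set-adjusted 5 were called higher, Sdc4, Cd44, Itga2b, Itgb3 and Itgb2, where 8.65% of all genes were called higher and 12.8% in either direction. No member was called lower in either fit by edgeR or by DESeq2, and all 6 that reached an unadjusted p under 0.05 in each edgeR fit were higher. For 6 of the 8 the lowest null value exceeded the highest control value, as for 14.9% of all tested genes. Since the choice of genes used this contrast and the filter passed genes through the group in which they are high, these counts say nothing about adhesion receptors as a class. With 1 library left out, 0 to 3 of them were called with group alone: 3 without control replicate 3 (Itga2b, Itgb2 and Sdc4) and 0 without each of the other 5. Set-adjusted, 4 or 5 were called without any library but null replicate 1, the only null library of the unlettered set, and 0 without that one. Counts over all genes moved too: set-adjusted, 162 were called higher and 40 lower without null replicate 1, against 909 and 437 with all libraries. With group alone, 3 to 109 of all genes were called higher without 1 library, against 120. Itgb2 lost its call without control replicate 1, null replicate 2 or null replicate 3, and Itgb3 without control replicate 3. With the presence of Y-linked transcripts as a term beside group and title set, a fit added after seeing the data, Itga2b and Sdc4 were called.

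The ratios were also taken within each title set, contrasts that the choice of genes used as well. All 8 tested genes had a log2 ratio above 0 in both sets. Since the filter also passed genes through the group in which they are high, this is a description and no independent check. For the 7 tested genes with a control read, the ratio ran from 0.31 (Itgb1) to 4.91 (Cd44) in the lettered set. For the same genes it ran from 0.45 (Itgav) to 7.19 (Itgb2) in the unlettered set. The values of Cd44 and the unlettered value of Itgb2 depend on the prior count. Itga2b had 1.46 in the lettered and 2.18 in the unlettered set, Itgb3 1.94 and 1.44, and Itga4 1.79 and 3.17. A difference of the null effect between the sets was called for 0 of 8 genes by edgeR's quasi-likelihood interaction test (1, Itgb2, at unadjusted p under 0.05; DESeq2 called 0), where 0.00951% of all genes were called. Itgb2 was called in that test without null replicate 2 and without null replicate 3. Without null replicate 2, 25 of 11041 genes were called higher and 241 lower, and without null replicate 3, 5 and 79 of 10990. In both fits only the unlettered controls held more than 1 library to give a spread.

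**Figure D4:**
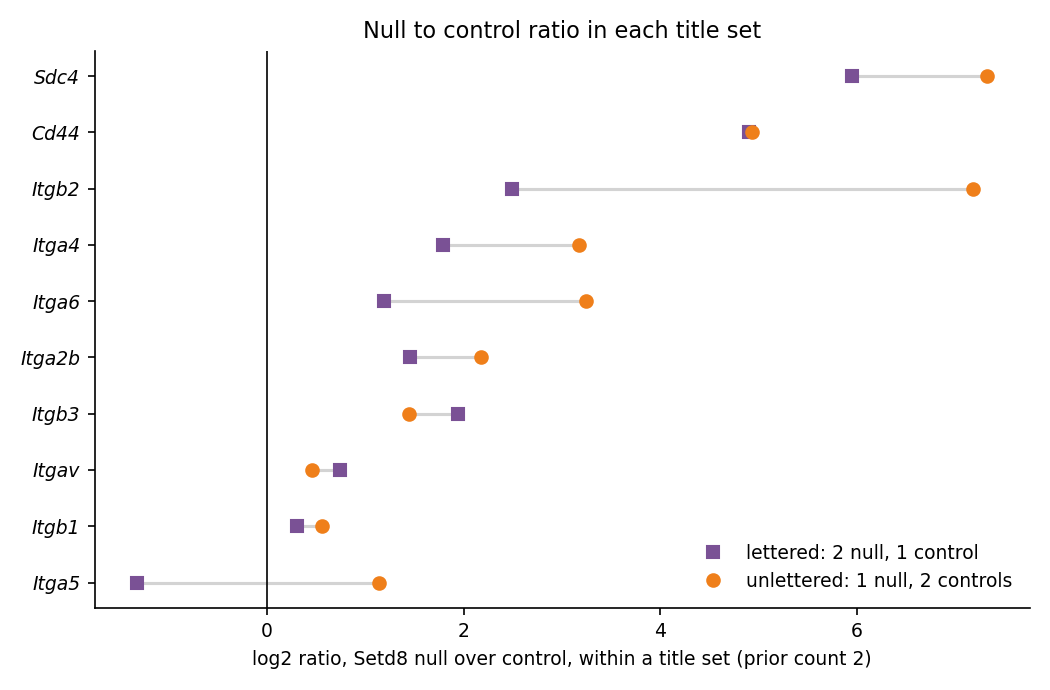
Log2 ratio of Setd8 null to control within the lettered set (2 null libraries, 1 control) and the unlettered set (1 null library, 2 controls), from CPM with a prior count of 2. Cd44 has 4.91 and 4.94, Itgb2 has 2.49 and 7.19, and Itga5 changes side on 7 reads in each group. Sdc4, Itga6, Cd44, Itga5 and the unlettered value of Itgb2 depend on the prior count, since controls had few reads or none.

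The level of the receptors in the lettered against the unlettered set, with group in the model, was not used in choosing them and could be tested. Itgb1 was higher in the lettered set, with a log2 difference of 1.30 (SE 0.28, adjusted p = 0.00458 by edgeR's quasi-likelihood test with Benjamini-Hochberg), with 69.9 and 38.9 against 23.6 CPM in null cells and 42.2 against 18.5 and 13.8 CPM in controls. Itga2b was higher too, with a log2 difference of 1.02 (SE 0.26, adjusted p = 0.0127 by the same test), with 67.0 and 50.02 against 36.5 CPM in null cells and 20.95 against 7.25 and 8.78 CPM in controls. These 2 of 8 compare with 17.7% of all tested genes called higher in the lettered set and 28.5% in either direction, and both lost their call without control replicate 3. No receptor gene was called lower there by edgeR or DESeq2, and 2 of the 8, the same ones, reached an unadjusted p under 0.05 in edgeR. The other chain of the platelet pair, Itgb3, had a log2 difference of -0.30 (SE 0.32, adjusted p = 0.54). The differences were 0.73 (SE 0.92) for Cd44, -1.32 (SE 0.78) for Sdc4 and 1.07 (SE 1.08) for Itgb2. No source used here says what sets the title sets apart.

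Around the receptors, 80 of 160 other adhesion genes passed the filter: further integrin chains, adaptors, ligands, membrane partners, and genes of hyaluronan and heparan sulfate. Of these, 7 were called higher with group alone and 15 set-adjusted, beside 1.14% and 8.65% of all genes. None was called lower with group alone by edgeR (23 of 80 reached an unadjusted p under 0.05 in either direction; DESeq2 called 1 lower), and 3 were called lower set-adjusted, beside 4.16% of all genes. Their log2 ratios had a median of 0.66 with group alone and 0.39 set-adjusted, against 0.13 and 0.044 over all tested genes. Genes with few control reads passed the filter only where null libraries had reads, which favours higher values. With 1 library left out, 0 to 3 were called higher with group alone and 5 to 14 set-adjusted, with 5 when null replicate 1 was left out. From 0 to 3 were then called lower set-adjusted, with 0 lacking null replicate 1 or control replicate 3 and 1 lacking control replicate 1. For group alone the count of higher genes was 0 lacking control replicate 1 or any null library, 2 lacking control replicate 2 and 3 lacking control replicate 3. Adjusted p-values in the next paragraphs are from edgeR's quasi-likelihood test, set-adjusted, with Benjamini-Hochberg over all 10512 genes. The lists were chosen with earlier results of these data known, so that these values too are a description.

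Ligands of the receptors were among the genes that rose. Of 9 tested ligands 4 rose and 0 fell set-adjusted by edgeR (6 reached an unadjusted p under 0.05 in either direction; DESeq2 called 4 higher and 1 lower), with a median log2 ratio of 1.7. Fn1, fibronectin, the matrix protein bound by alpha4 beta1, alpha5 beta1, alphav beta3 and syndecan-4, stood at 150.6, 163.9 and 185 CPM in null replicates 1, 2 and 3, against 49.0, 20.4 and 29.2 CPM in control replicates 1, 2 and 3 (log2 ratio 2.36, SE 0.30, adjusted p = 0.000696). Mfge8, a secreted protein that binds alphav integrins and bridges them to dying cells, stood at 129, 123 and 82.7 CPM in null libraries, against 6.96, 2.07 and 6.78 CPM in controls (log2 ratio 4.42, SE 0.44, adjusted p = 0.000325). Both were called set-adjusted in each of the 6 fits without 1 library. They were also called with group alone, but there Fn1 in 0 and Mfge8 in 2 of the 6 fits without 1 library. Thbs1 (log2 ratio 3.54, with overlapping libraries) and the laminin chain Lama5 (log2 ratio 4.70) rose too, but of the 6 fits without 1 library Thbs1 was called only in the one without null replicate 3 and Lama5 only in the one without control replicate 2. Icam4, the red cell ligand of integrins in erythroblastic islands, stood at 142, 111 and 115 CPM in null libraries, against 185, 177 and 177 CPM in controls; all null libraries lay below all controls, as in 9.16% of tested genes, and it was not called (adjusted p = 0.0539). Vcam1, the ligand of alpha4 beta1 on island macrophages, had 1 read in all, in control replicate 1.

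Among the adaptors that couple integrins to actin, 3 of 25 rose set-adjusted and 0 fell by edgeR (7 reached an unadjusted p under 0.05; DESeq2 called 3 higher and 1 lower), with a median log2 ratio of 0.30. Fermt3, kindlin-3, which blood cells need to switch integrins to the binding state, stood at 109.7, 111 and 83.3 CPM in null replicates 1, 2 and 3, against 27.2, 11.1 and 19.7 CPM in control replicates 1, 2 and 3 (log2 ratio 2.42, SE 0.31, adjusted p = 0.000711). It was called with group alone too, but in 0 of the 6 such fits without 1 library, and it lost its set-adjusted call without null replicate 1. Vcl, vinculin, stood at 13.7, 26.5 and 29.4 CPM in null libraries and 5.62, 8.03 and 2.88 CPM in controls (log2 ratio 2.12, adjusted p = 0.027), and was not called without control replicate 1, control replicate 3 or null replicate 2. Ptk2b, a kinase related to focal adhesion kinase, averaged 6.89 ± 2.99 CPM in null cells and 0.328 ± 0.446 in controls (SD, n = 3 each, log2 ratio 4.25). It had 19 control reads in all and passed the filter through the null libraries. Its call was lost without null replicate 1 or null replicate 2. Lims1 and Ilk, partners in 1 complex at the integrin tail, averaged 172 ± 33.8 and 141 ± 28.2 CPM in null cells and 152 ± 3.09 and 118 ± 14.2 CPM in controls, and neither was called.

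Of 14 tetraspanins and other membrane partners of integrins, 5 rose and 1 fell set-adjusted, with a median log2 ratio of 1.1. Cd81, a tetraspanin that associates with alpha4 beta1, stood at 240, 202 and 126 CPM in null replicates 1, 2 and 3, against 13.5, 29.1 and 13.6 CPM in control replicates 1, 2 and 3 (log2 ratio 3.53, SE 0.30, adjusted p = 5.52e-05). Cd63, a tetraspanin of late endosomes, averaged 51.7 ± 24.9 CPM in null cells and 4.63 ± 2.53 in controls (SD, n = 3 each; log2 ratio 3.52, adjusted p = 0.000353). Cd81 was called in each of the 6 set-adjusted fits without 1 library, and Cd63 in all but the one without null replicate 1. Both were also called with group alone, but there Cd81 in 2 and Cd63 in 0 of the 6 fits without 1 library. Cd37, a tetraspanin of leukocytes, averaged 8.61 ± 2.84 CPM in null cells and 0.220 ± 0.263 in controls, and macrophage markers were higher in the same libraries. Like Srgn and Sulf2 below, it lost its call without null replicate 1. Cd36, a receptor for thrombospondin, had 137 null and 3 control reads, a pooled ratio of 38.4 with an exact 95% counting interval of 12.9 to 189, and was called in none of the 6 set-adjusted fits without 1 library. Tspan33 fell by 0.69 on the log2 scale and followed the title sets, at 34.0, 120 and 154 CPM in null replicates 1, 2 and 3 and 55.4, 45.2 and 239.5 CPM in control replicates 1, 2 and 3, and its call was lost without either of null replicates 1 and 2 and without either of control replicates 1 and 3.

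In the surroundings of Cd44, 2 of 10 tested genes rose and 1 fell set-adjusted, with a median log2 ratio of 0.38. Hyal1, a lysosomal enzyme that degrades hyaluronan, stood at 20.3, 17.1 and 10.9 CPM in null replicates 1, 2 and 3, against 0.740, 0.691 and 0.464 CPM in control replicates 1, 2 and 3 (log2 ratio 4.86, SE 0.52). Hyal1 had 28 control reads in all and passed the filter through the null libraries. It was called in each of the 6 set-adjusted fits without 1 library. With group alone it was called too, but in 1 of the 6 such fits. Srgn, serglycin, a proteoglycan of secretory granules that can bind Cd44, had 290 null reads and no control read and stood at least 81.3-fold higher, against 3 counts over the control group. Rdx, radixin, which ties the tail of Cd44 to actin, stood at 52.4, 90.0 and 84.1 CPM in null libraries, against 92.2, 98.5 and 128.5 CPM in controls. It fell by 0.71 in log2 units (SE 0.17, adjusted p = 0.021). Its relatives moesin and ezrin were not called: Msn averaged 159.5 ± 16.6 CPM in null cells and 166.5 ± 26.1 in controls and Ezr had a log2 ratio of 0.80 (SE 0.28). Rdx was not called without control replicate 1, 2 or 3 or without null replicate 1.

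Among syndecans, glypicans and heparan sulfate genes 1 of 19 rose and 1 fell set-adjusted, with a median log2 ratio of 0.48. Sdc1, the other syndecan that passed the filter, stood at 1.23, 10.51 and 8.93 CPM in null replicates 1, 2 and 3, against 1.48, 0.851 and 3.86 CPM in control replicates 1, 2 and 3, and was not called (adjusted p = 0.531). Sdc2 reached 1.05 CPM in null and 0.0532 CPM in control libraries, and Sdc3 0.0516 and 0.0464 CPM. Sulf2, an extracellular enzyme that trims sulfate from heparan sulfate, had 257 null reads and 1 control read, a pooled ratio of 216 with an exact 95% counting interval of 38.4 to 8567, and was called with group alone, but in 0 of the 6 such fits without 1 library. Adam17, the protease that sheds the outer parts of many membrane proteins, stood at 9.63, 8.77 and 10.99 CPM in null libraries, against 30.0, 26.8 and 30.3 CPM in controls. It fell by 1.59 in log2 units (SE 0.29, adjusted p = 0.00465). Its call was lost without control replicate 3 and without null replicate 1. Sdcbp, syntenin, which binds syndecan tails, averaged 353 ± 49.9 CPM in null cells and 345.5 ± 36.6 in controls and was not called. Of 19 further integrin chains 3 passed the filter and 0 were called in either fit by edgeR (1 at unadjusted p under 0.05, Itgb7). DESeq2 called 0 with group alone and 1 set-adjusted. Over all genes edgeR called 1.15% with group alone and 12.8% set-adjusted, in either direction. Itgb7, a leukocyte beta chain that pairs with alpha4, stood at 2.22, 7.18 and 5.78 CPM in null libraries, against 0.148, 0.106 and 1.67 CPM in controls (adjusted p = 0.0511).

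**Figure D5:**
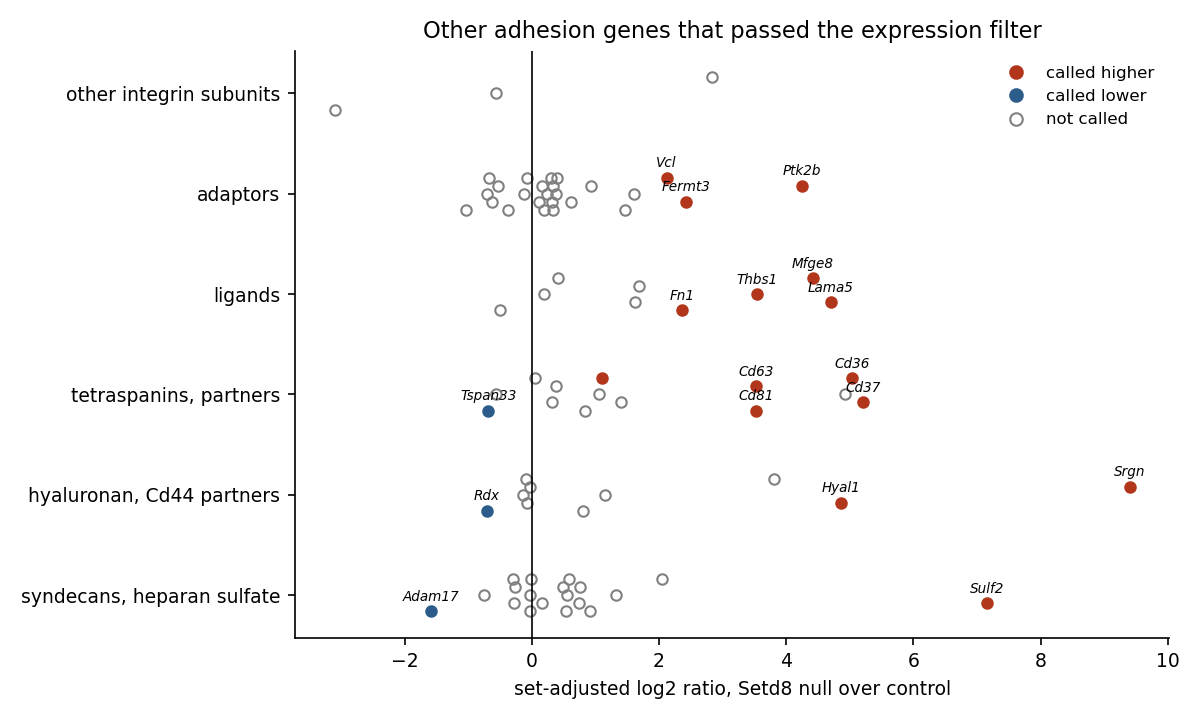
Set-adjusted log2 ratio of Setd8 null to control for the 80 other adhesion genes that passed the filter, 1 point a gene in 6 lists, with called genes filled (higher in red, lower in blue). The highest called ratios are those of Srgn, with no control read, and of Sulf2, with 1, and Rdx, Tspan33 and Adam17 are called lower; the unlabelled red point is Cd47.

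Over the 6 libraries, the tested genes whose log2 CPM ran most like each receptor gene by Pearson correlation are given as a description. For Sdc4 they were Pga5 (r = 0.9998) and Il1r2 (r = 0.9982), both without a read in controls and at 0.774 to 1.63 and 9.65 to 24.1 CPM in null libraries. The genes most like Cd44 were Marveld1 (r = 0.9978) and Arap2 (r = 0.9977), at 2.92 to 5.85 and 4.32 to 7.49 CPM in null cells and at most 0.0464 and 0.0929 CPM in controls. Itga2b was most like Phlda1 (r = 0.9997) and Perp (r = 0.9976), and Itgb3 most like Kdelr1 (r = 0.9941) and Zmat3 (r = 0.992). For Itgb2 they were Klf9 (r = 0.9935) and Plekhn1 (r = 0.9928), each under 1 CPM in every control, and for Itga4 Paip2 (r = 0.9933) and Fahd2a (r = 0.993). Itgb1 was most like Osbpl8 (r = 0.9957) and Itgav most like Hadhb (r = 0.9826). All these correlations rest on the same 6 libraries and on the step between their groups and sets.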

How the data were processed

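RNA was extracted with a small-input kit and polyadenylated RNA was sequenced, per the labels' protocols. The authors deposited whole-number gene counts without normalization, 1 table per library. Tools named in the submitters' processing notes are TopHat2 2.1.0 and HTSeq 0.6.1, beside Trimmomatic 0.32, FastQC and edgeR, on build mm9. Options and strand setting are not stated, so overlapping genes on opposite strands cannot be told apart.

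The 3 unlettered tables had counter summary lines, kept out of library sizes, and 25 symbols turned into dates, which were restored. Of their totals, 6.07% in null replicate 1, 42.9% in control replicate 1 and 7.72% in control replicate 2 matched no feature, 32.4%, 24.1% and 22.5% lacked a unique alignment, and 2.35%, 0.657% and 2.17% were ambiguous.

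The tests used edgeR 4.0.16 in R 4.3.3. The function filterByExpr with the group factor kept 10512 genes, libraries were scaled by TMM, and glmQLFit (robust) with glmQLFTest, 2-sided, was adjusted by Benjamini-Hochberg at 0.05, with 4 residual degrees of freedom for group alone, 3 with the title set and 2 with the interaction. The standard error is the log2 ratio over the root of F. DESeq2 1.42.0 was an alternative. Exon lengths are unions over GENCODE M21 (GRCm38), another build than the counts', and affect levels between genes only. Within-set ratios subtract mean log2 CPM values (prior count 2). The tests were checked on simulated data.

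The 10 genes and all lists were chosen with earlier results of these data known. Other adhesion genes were named when called set-adjusted, at most 4 per list and direction by the size of the ratio, with the 2 most abundant not called. Outside that rule, Ezr, Vcam1, Sdc1, Sdc2, Sdc3 and Cd47 were named after their values were seen. Alternatives were other size factors, no globin genes, other filters, DESeq2 and leaving out each library; a term for Y-linked transcripts was added after seeing the data.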

Additional observations from a re-analysis of the deposited data

Results flagged for a closer look

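With 7 reads in each group, Itga5 had a log2 ratio of null to control of -1.32 in the lettered and 1.14 in the unlettered set. Itga5 gave no readable direction, since both values depend on the prior count of 2. It had 0 and 1 reads in null replicates 2 and 3 against 5 in control replicate 3, and 6 reads in null replicate 1 against 1 in each of control replicates 1 and 2. The difference was not tested with the filter used here, which the gene failed. Where every gene with at least 1 read was tested, the interaction was -4.71 on the log2 scale (SE 4.02) and was not called.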

How the results depend on the processing

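With DESeq2's Wald test 6 receptor genes were called higher with group alone, against 2 with edgeR. Of the other adhesion genes, 14 were then called higher and 1 lower with group alone, against 7 and 0, and 6 lower set-adjusted, against 3. Set-adjusted, 5 other adhesion genes were called lower with DESeq2 size factors and 5 without globin genes. Where every gene with at least 1 read was tested, the null effect on 1 receptor gene, Itgb2, was called lower in the lettered set than in the unlettered set. In that fit 12 of 19008 genes were called higher and 40 lower. With the presence of Y-linked transcripts as a further term, added after seeing the data, 2 receptor genes were called higher, and 5 other adhesion genes higher and 0 lower. Leaving out 1 library gave 0 to 3 receptor genes called higher with group alone and 0 to 5 set-adjusted. The other adhesion genes ranged from 0 to 3 higher with group alone, from 5 to 14 higher set-adjusted and from 0 to 3 lower set-adjusted. Of the receptor genes, 0 to 3 were then higher in the lettered set, and 0 to 1 had an interaction called lower. The interaction could not be fitted without null replicate 1 or control replicate 3. Over all genes the group-alone counts of 120 higher and 1 lower compare with 697 and 197 by DESeq2, 264 and 16 at 1 read or more, and 204 and 5 at 1 CPM or more. Set-adjusted, 437 genes were lower by edgeR and 882 by DESeq2. Of the log2 ratios of receptor genes under other settings, 171 moved by less than 1 standard error of the main ratio and 13 by more, and none changed sign. No paired analysis was possible because the labels give no replicate numbers shared by the groups. Depth limits Itga5, Itga6, Itga4 and the control levels of Cd44, Sdc4 and Itgb2, and 3 residual degrees of freedom limit the set-adjusted tests.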
